A study of Mus musculus with 12 samples.

Results

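The genes described here are Trp53, the mouse gene for the transcription factor p53, its inhibitors Mdm2 and Mdm4, and its target genes Cdkn1a, Ccng1, Sesn2, Zmat3, Phlda3, Eda2r and Trp53inp1. They were chosen by name as p53 and textbook p53 genes, by a rule that uses no measured value but with earlier results of these data known, and make up 10 of the 46517 genes in the table. RNA was sequenced from LSK cells of mouse bone marrow (c-Kit-positive and Sca-1-positive cells without lineage markers), the hematopoietic stem and progenitor cells (HSPCs). The 12 libraries form 4 groups of 3 biological replicates: WT, p300KO, Tet2KO and p300KO_Tet2KO. The mice were 8 to 10 weeks old, of both sexes and in the C57BL/6 background, and cells were sorted 2 weeks after injections of poly(I:C), which all groups received. By the study's methods WT mice were Ep300 fl/fl, p300KO mice Mx1-Cre;Ep300 fl/fl, Tet2KO mice Ep300 fl/fl;Tet2-/- and p300KO_Tet2KO mice Mx1-Cre;Ep300 fl/fl;Tet2-/-. Mx1-Cre is driven by an interferon-responsive promoter that poly(I:C) switches on in blood cells and in other tissues. On these genotypes only p300-deleted mice carried Cre, so Cre and the loss of p300 cannot be told apart. The design note deposited with the data can be read as giving Mx1-Cre to all 4 groups.

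p53 is held at a low level in unstressed cells because MDM2 marks it for degradation and MDM4 blocks its activity. After DNA damage or other stress p53 is released, binds paired copies of a short site near its targets and switches on genes for cell cycle arrest, apoptosis, DNA repair and metabolism, Mdm2 among them. p300, encoded by Ep300, is a histone acetyltransferase that acetylates p53 and serves as a coactivator at its target genes. In blood stem cells p53 and the Cdkn1a product p21 are known for restraining entry into the cell cycle.

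Levels are in CPM, the counts of a gene scaled to the TMM-normalized size of its library (edgeR cpm), and are given as mean ± SD (n = 3). Fold changes are log2 values ± SE from 1 edgeR quasi-likelihood fit of all 12 libraries, and a call means that p, after Benjamini-Hochberg adjustment over the 17842 tested genes, was under 0.05. All 10 genes passed the filter on low counts. Among the 10, Cdkn1a and Phlda3 were lower and Zmat3 was higher in p300-deleted cells, though Zmat3 was not called in p300KO against WT. Sesn2 was higher in cells labelled p300KO_Tet2KO than in WT. No call was made for Trp53, Mdm2, Mdm4, Ccng1, Eda2r or Trp53inp1 in any comparison.

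Library totals ran from 18773903 to 79573664 counts, and mitochondrial genes held 0.503% of the counts in p300KO_Tet2KO replicate 2, against 1.18% to 1.53% in the other libraries. Ep300 RNA was 285 to 340 CPM in WT and 313 to 350 in Tet2KO, against 176 to 233 in p300KO and 166 to 179 in p300KO_Tet2KO. Tet2 RNA was 120 to 139 CPM in WT and 38.6 to 56.6 in Tet2KO, but 101 to 145 in the libraries labelled p300KO_Tet2KO. The Tet2 level thus goes against that label, and a comparison of these libraries with Tet2KO also sets a Tet2 RNA level near that of WT against a low one. Over all p300-deleted against p300-intact libraries Tet2 RNA was likewise higher, by 0.85 ± 0.11 on the log2 scale (adjusted p = 0.0004 by edgeR). Of the members, Zmat3 was called in these comparisons only. In p300KO against WT and in p300KO_Tet2KO against Tet2KO the p300-deleted cells held less early lymphoid marker RNA. The summed level of its 8 genes was 1936 to 2367 CPM in WT and 726 to 968 in p300KO, and 1272 to 1870 in Tet2KO and 524 to 653 in p300KO_Tet2KO, with 7 of 8 genes called lower in each comparison, against 2.85% and 2.89% of all genes. The 7 B cell markers summed to 83.2 to 131 CPM in WT, 40.0 to 51.8 in Tet2KO, 26.2 to 46.1 in p300KO and 20.1 to 36.0 in p300KO_Tet2KO. The 9 markers of the LSK gate summed to 3085 to 3302 CPM in WT and 2820 to 3259 in Tet2KO, but to 2557 to 2919 in p300KO and 2757 to 2999 in p300KO_Tet2KO. Thus p300KO and p300KO_Tet2KO lay below WT, and each overlapped Tet2KO. Of these 9, Flt3 was called lower in p300KO against WT, and Flt3 and Slamf1 in p300KO_Tet2KO against Tet2KO. In the latter comparison 1 of 7 tested granulocyte and monocyte markers, Csf1r, was called lower and 2 of 7 had positive log2 fold changes. Over p300-deleted against p300-intact libraries, 1 of these 7 was called higher and 0 lower (3.05% and 6.01% of all genes). The basophil marker Mcpt8, 1 of 5 mast cell and basophil markers, was also called lower in p300KO_Tet2KO against Tet2KO. The 7 T and NK cell markers summed to 5.56 to 9.98 CPM in WT, 8.54 to 12.9 in Tet2KO, 5.26 to 12.1 in p300KO and 7.31 to 9.73 in p300KO_Tet2KO. Of the 3 tested, 1 was called lower in p300KO_Tet2KO against Tet2KO (2.89% of all genes). Cd3e, which defines T cells, was at 0.0553 CPM or less. In such bulk samples fewer cells of a type and less RNA per cell cannot be told apart, and the part of these shifts in the results below was not tested.

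In WT cells the members spanned a wide range of levels. Per kb of merged exon, Trp53 was the highest at 57.1 CPM per kb. Mdm4 at 20.3, Ccng1 at 19.7 and Mdm2 at 15.2 CPM per kb followed. Next were Cdkn1a at 11.8 and Trp53inp1 at 11.4 CPM per kb. Mdm4 and Ccng1, and likewise Cdkn1a and Trp53inp1, did not differ from each other beyond their spread between WT libraries. Sesn2 at 3.67, Phlda3 at 2.81, Zmat3 at 0.935 and Eda2r at 0.200 CPM per kb were the lowest.

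Promoter windows are shown for members whose RNA differed between groups, and for Ccng1, whose RNA did not pass the test, as a site-bearing counterpart. RefSeq sequence on GRCm38.p6 from 250 bases before to 50 after a transcription start was found for 8 of the 10 genes, as 10 windows of 300 bases. Zmat3 and Trp53inp1 have no window here. Both strands were searched for the p53 half-site consensus of 10 bases and for a p53 site of paired half-sites. The paired site allowed at most 3 mismatches in 20 bases and a spacer of up to 13 bases. In each of its half-sites the C and the G on either side of the middle bases were kept, but the middle bases could mismatch. Capitals mark such matches, and each sequence reads 5′ to 3′ along its gene.

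Cdkn1a, upstream start, chr17:29090729-29091028, plus strand: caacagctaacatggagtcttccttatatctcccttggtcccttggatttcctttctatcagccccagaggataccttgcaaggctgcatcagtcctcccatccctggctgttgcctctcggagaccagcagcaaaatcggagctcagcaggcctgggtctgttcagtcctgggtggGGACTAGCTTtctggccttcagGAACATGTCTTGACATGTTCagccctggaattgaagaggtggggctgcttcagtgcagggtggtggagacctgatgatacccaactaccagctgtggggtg

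Cdkn1a, second start, chr17:29093519-29093818, plus strand: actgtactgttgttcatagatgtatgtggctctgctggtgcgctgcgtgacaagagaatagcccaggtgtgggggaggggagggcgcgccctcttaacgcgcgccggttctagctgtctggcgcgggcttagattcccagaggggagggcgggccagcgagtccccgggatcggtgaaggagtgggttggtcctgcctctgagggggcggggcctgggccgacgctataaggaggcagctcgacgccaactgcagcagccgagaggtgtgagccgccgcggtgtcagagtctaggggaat

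Phlda3, chr1:135765835-135766134, plus strand: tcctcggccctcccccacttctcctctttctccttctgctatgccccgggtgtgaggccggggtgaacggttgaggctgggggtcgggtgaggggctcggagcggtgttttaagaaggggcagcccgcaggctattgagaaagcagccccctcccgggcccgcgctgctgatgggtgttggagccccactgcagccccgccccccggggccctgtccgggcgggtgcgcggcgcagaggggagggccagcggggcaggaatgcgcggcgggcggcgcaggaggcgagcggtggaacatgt

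Sesn2, chr4:132510407-132510706, minus strand: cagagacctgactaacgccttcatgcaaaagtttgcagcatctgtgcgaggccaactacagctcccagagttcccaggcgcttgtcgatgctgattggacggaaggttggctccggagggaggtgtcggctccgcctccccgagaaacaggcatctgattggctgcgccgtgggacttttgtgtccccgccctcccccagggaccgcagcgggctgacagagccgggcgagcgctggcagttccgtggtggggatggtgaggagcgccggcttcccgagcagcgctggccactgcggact

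Ccng1, chr11:40755237-40755536, minus strand: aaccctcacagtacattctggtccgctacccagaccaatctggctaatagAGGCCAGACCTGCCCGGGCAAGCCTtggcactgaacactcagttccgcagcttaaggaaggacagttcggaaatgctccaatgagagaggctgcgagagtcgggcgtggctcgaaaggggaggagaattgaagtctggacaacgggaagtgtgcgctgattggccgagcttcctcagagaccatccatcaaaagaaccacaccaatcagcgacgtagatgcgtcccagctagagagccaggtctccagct

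The upstream Cdkn1a window holds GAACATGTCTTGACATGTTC, which begins 51 bases before that start and has 1 mismatch to the paired consensus and no spacer. A second half-site, GGACTAGCTT, lies 12 bases before it, and that pair has 0 mismatches. The Ccng1 window holds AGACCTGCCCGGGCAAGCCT, beginning 195 bases before the start, with 1 mismatch. The second Cdkn1a window, which holds the motif GGGCGG, and the Phlda3 and Sesn2 windows held no match. Paired sites were found in 4 of the 10 windows, those of Trp53, Mdm4, Cdkn1a and Ccng1, and in 15.6% of the 32851 windows in the RefSeq table. Exact half-sites were found in 4 of the 10, those of Trp53, Mdm2, Cdkn1a and Ccng1, and in 8.36% of all windows. A match is a run of letters and was not tested for binding. Of the 2 members called lower, 1 had a match in a window and 1 had none.

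Trp53 lies at chr11:69580359-69591873 on the plus strand (Gencode vM21, mm10). Its RNA was 245, 230 and 218 CPM in WT replicates 1 to 3, 198, 231 and 213 in Tet2KO, 233, 199 and 201 in p300KO, and 222, 232 and 203 in p300KO_Tet2KO. The groups overlapped, with means from 211 ± 18.8 to 231 ± 13.3 CPM. The log2 fold change was -0.13 ± 0.09 in p300KO against WT (95% interval -0.33 to 0.07) and 0.04 ± 0.09 in p300KO_Tet2KO against Tet2KO (-0.16 to 0.23). The pseudogene Trp53-ps had 0 counts in every library.

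The inhibitors Mdm2 (chr10:117688875-117710758, minus strand) and Mdm4 (chr1:132959484-133030561, minus strand) also overlapped between p300-deleted and p300-intact cells. Mdm2, the ubiquitin ligase that is itself a p53 target, was 72.2, 79.2 and 80.4 CPM in WT, 83.9, 79.7 and 73.2 in Tet2KO, 72.1, 89.8 and 79.2 in p300KO, and 76.4, 82.0 and 75.0 in p300KO_Tet2KO. Its group means differed by less than the spread within a group. The log2 fold change of p300-deleted against p300-intact cells was 0.02 ± 0.07 (-0.12 to 0.16). For Mdm4 the level was 290, 323 and 288 CPM in WT, 337, 324 and 333 in Tet2KO, 288, 356 and 337 in p300KO, and 304, 290 and 348 in p300KO_Tet2KO. Only Tet2KO and WT did not overlap, with a log2 fold change of 0.14 ± 0.10 and an adjusted p of 0.568. In the comparison of p300-deleted with p300-intact cells that of Mdm4 was 0.02 ± 0.07 (-0.13 to 0.18).

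**Figure D1:**
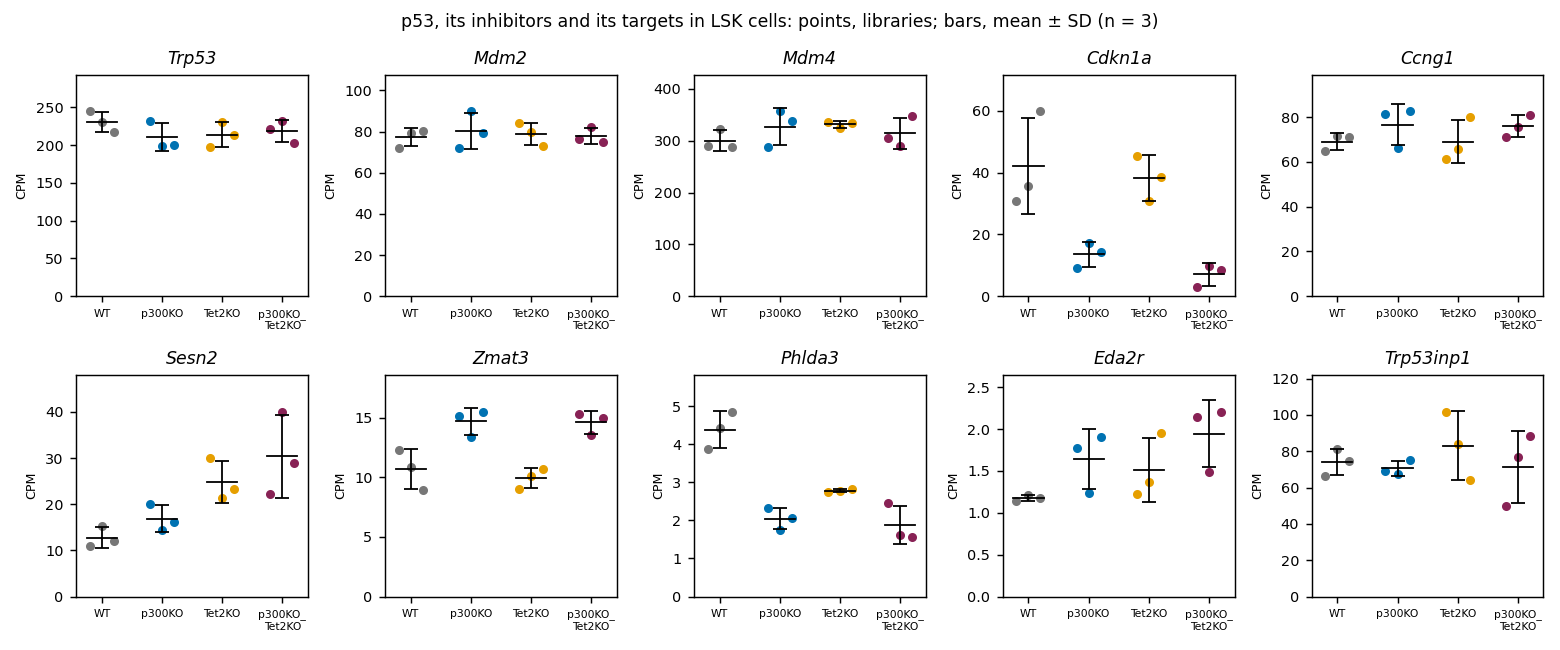
Levels of p53, its inhibitors and its targets in CPM (linear axis from 0) for the 12 libraries by group; points are libraries and bars the mean ± SD (n = 3). Cdkn1a, Phlda3 and Zmat3 separate the p300-deleted from the p300-intact libraries, Sesn2 is lowest in WT (10.9 to 15.3 CPM against 14.3 to 40.0 elsewhere), and Trp53, Mdm2 and Mdm4 overlap between them.

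Cdkn1a encodes p21, the cyclin-dependent kinase inhibitor through which p53 halts the cell cycle, and lies at chr17:29090976-29100727 on the plus strand. It was 30.7, 35.7 and 59.8 CPM in WT, 45.5, 30.7 and 38.5 in Tet2KO, 9.17, 17.1 and 14.2 in p300KO, and 2.98, 9.75 and 8.46 in p300KO_Tet2KO. Every p300-deleted library was below every p300-intact one, the highest of the former at 17.1 and the lowest of the latter at 30.7 CPM. In p300KO the mean was 13.5 ± 4.03 CPM, against 42.1 ± 15.5 in WT, and it was 7.06 ± 3.60 in p300KO_Tet2KO, against 38.2 ± 7.40 in Tet2KO.

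Cdkn1a was 3.08-fold lower in p300KO than in WT, with a log2 fold change of -1.62 ± 0.36 (-2.41 to -0.83) and an adjusted p of 0.0270 by edgeR. Of the 6 fits without 1 library, this call held only in that without WT replicate 1. It was lost without WT replicate 2 (adjusted p = 0.0631), WT replicate 3 (0.0737), p300KO replicate 1 (0.101), p300KO replicate 2 (0.0532) or p300KO replicate 3 (0.0905), with log2 fold changes of -1.85 to -1.29 over the 6 fits without 1 library. Between the cells labelled p300KO_Tet2KO and Tet2KO, the difference was 5.27-fold, or -2.40 ± 0.38 on the log2 scale (-3.21 to -1.58), with an adjusted p of 0.0038, and it was called in 15 of 15 alternative fits. Against WT, p300KO_Tet2KO was 5.77-fold lower (-2.53 ± 0.38, adjusted p = 0.0012). Over all p300-deleted against p300-intact libraries, 6 against 6, which reuses the same samples, Cdkn1a was 4.03-fold lower (-2.01 ± 0.26, -2.58 to -1.44, adjusted p = 0.0004) and was called in 20 of 20 alternative fits.

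Tet2KO and WT overlapped in Cdkn1a, with a log2 fold change of -0.13 ± 0.35 (-0.89 to 0.63). The change of Cdkn1a in p300KO_Tet2KO against Tet2KO minus that in p300KO against WT was -0.78 ± 0.51 on the log2 scale, with an interval of -1.88 to 0.33 (adjusted p = 0.756). The changes were thus not shown to differ, and the former comparison also differs in Tet2 RNA. A gene model on the other strand, AC167363.2, overlaps Cdkn1a and is not a row of the table. Whether counting used strand is not given in the sources used here.

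Ccng1 encodes cyclin G1, a p53 target that takes part in feedback on p53 through MDM2, and lies at chr11:40748552-40755311 on the minus strand. Its level was 64.7, 71.6 and 70.9 CPM in WT, 61.5, 65.7 and 79.9 in Tet2KO, 81.2, 66.2 and 82.5 in p300KO, and 71.3, 75.4 and 81.2 in p300KO_Tet2KO. All group pairs overlapped. In p300-deleted against p300-intact cells the log2 fold change was 0.14 ± 0.08 (-0.03 to 0.32), so the interval leaves out a fall of the size seen for Cdkn1a.

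Phlda3, a PH domain protein that p53 induces and that restrains AKT signalling, lies at chr1:135766119-135769136 on the plus strand. It was 3.87, 4.43 and 4.85 CPM in WT, 2.73, 2.78 and 2.84 in Tet2KO, 2.32, 1.76 and 2.06 in p300KO, and 2.45, 1.62 and 1.55 in p300KO_Tet2KO. WT was above the other groups, and Tet2KO lay between WT and the p300-deleted libraries, each of which was below every p300-intact one. Phlda3 was 2.14-fold lower in p300KO than in WT (log2 fold change -1.10 ± 0.22, -1.58 to -0.62, adjusted p = 0.0173), a call lost without WT replicate 2 (adjusted p = 0.0656), p300KO replicate 2 (0.0691) or p300KO replicate 3 (0.0635). In p300KO_Tet2KO against WT it was 2.35-fold lower (-1.23 ± 0.23, adjusted p = 0.0045).

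Between p300KO_Tet2KO and Tet2KO the change of Phlda3 was not called (-0.58 ± 0.22, -1.07 to -0.10, adjusted p = 0.203), nor was that between Tet2KO and WT (-0.65 ± 0.22, adjusted p = 0.237). The change in p300KO_Tet2KO against Tet2KO minus that in p300KO against WT was 0.52 ± 0.32 on the log2 scale, with an interval of -0.17 to 1.20. These changes were thus not shown to differ. Across 6 against 6 libraries Phlda3 was 1.79-fold lower (-0.84 ± 0.16, adjusted p = 0.0048) and was called in 20 of 20 alternative fits.

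Zmat3 encodes a zinc finger protein that binds RNA and regulates splicing downstream of p53, and lies at chr3:32334792-32366014 on the minus strand. It was 12.3, 10.9 and 8.92 CPM in WT, 9.03, 10.1 and 10.7 in Tet2KO, 15.2, 13.4 and 15.5 in p300KO, and 15.3, 13.5 and 15.0 in p300KO_Tet2KO. The direction was opposite to that of Cdkn1a and Phlda3, since all p300-deleted libraries were at 13.4 CPM or more and all p300-intact ones at 12.3 or less. Over 6 against 6 libraries Zmat3 was 1.42-fold higher (0.50 ± 0.10, 0.29 to 0.72, adjusted p = 0.0065), a call that held in 20 of 20 alternative fits.

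The change of Zmat3 within each background was close to the threshold. In p300KO_Tet2KO against Tet2KO it was 0.56 ± 0.14 on the log2 scale (0.25 to 0.86, adjusted p = 0.0475), and this call was lost without any 1 of the 6 libraries, Tet2KO replicates 1 to 3 or p300KO_Tet2KO replicates 1 to 3, with adjusted p from 0.0604 to 0.161. In p300KO against WT it was 0.45 ± 0.14 (0.14 to 0.75, adjusted p = 0.109), and Tet2KO and WT overlapped (-0.12 ± 0.14).

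Sesn2 encodes sestrin 2, which restrains mTORC1 under stress and is induced by p53 and also by ATF4, and lies at chr4:132492032-132510501 on the minus strand. It was 10.9, 15.3 and 12.1 CPM in WT, 30.0, 21.2 and 23.3 in Tet2KO, 20.1, 14.3 and 16.0 in p300KO, and 22.2, 40.0 and 28.8 in p300KO_Tet2KO. The Tet2KO libraries and those labelled p300KO_Tet2KO were all at 21.2 CPM or more and above every WT and p300KO library, whereas p300KO overlapped WT. The high groups were thus those whose label names Tet2, although the Tet2 RNA of p300KO_Tet2KO was near that of WT. Sesn2 was 2.40-fold higher in p300KO_Tet2KO than in WT (1.26 ± 0.22, 0.78 to 1.74, adjusted p = 0.0033), which was called in 15 of 15 alternative fits.

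Summed markers of other cell types also differed between some of these groups. The 8 granulocyte and monocyte markers summed to 1465 to 2038 CPM in WT, 2343 to 5045 in Tet2KO, 1711 to 2994 in p300KO and 1914 to 2415 in p300KO_Tet2KO, and 1 of 7 tested, Csf1r, was called higher in Tet2KO against WT (0.482% of all genes). The 5 mast cell and basophil markers summed to 119 to 207 CPM in WT, 79.9 to 143 in Tet2KO, 99.2 to 160 in p300KO and 61.4 to 83.3 in p300KO_Tet2KO, and Mcpt8, Prss34 and Ms4a2 were called lower in p300KO_Tet2KO against WT (4.92% of all genes). Their part in the Sesn2 levels was not tested.

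In Tet2KO against WT the log2 fold change of Sesn2 was 0.97 ± 0.22 (0.49 to 1.44), which missed the threshold with an adjusted p of 0.0721 and was called in 2 of 15 alternative fits. It was 0.40 ± 0.22 in p300KO against WT (adjusted p = 0.415) and 0.29 ± 0.21 in p300KO_Tet2KO against Tet2KO (adjusted p = 0.547). Gm12981, which overlaps Sesn2, was at 0.664 CPM or less, and Gm29257, which overlaps Mdm4, at 0.446 CPM or less.

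Eda2r, a receptor of the TNF family for ectodysplasin A2, is X-linked (chrX:97333840-97377216, minus strand) and was the lowest member. It was 1.14, 1.22 and 1.17 CPM in WT, 1.23, 1.36 and 1.95 in Tet2KO, 1.78, 1.24 and 1.91 in p300KO, and 2.14, 1.49 and 2.21 in p300KO_Tet2KO. All WT libraries were below all others, but no comparison called it, and the log2 fold change was 0.46 ± 0.28 in p300KO against WT (adjusted p = 0.470) and 0.71 ± 0.28 in p300KO_Tet2KO against WT (adjusted p = 0.161). The libraries also differed in sex-linked RNA. Eda2r was 1.91 to 2.21 CPM in the 4 libraries with Xist and almost no Y-linked RNA (p300KO replicate 3, Tet2KO replicate 3, p300KO_Tet2KO replicates 1 and 3), 1.14 to 1.78 in the 7 with Y-linked RNA and little Xist, which include all of WT, and 1.23 in Tet2KO replicate 1, which held both. The part of this difference in the levels of Eda2r was not tested. The 4 libraries were spread unevenly over the groups, so sex-linked RNA is partly confounded with group. In these 4 and the 7, median levels were 11.3 and 30.7 CPM for Cdkn1a and 2.26 and 2.78 for Phlda3. They were 15.1 and 12.3 CPM for Zmat3 and 22.8 and 15.3 for Sesn2. Fits with a Y-linked RNA covariate are among the alternatives given below.

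Trp53inp1, a stress protein that promotes p53 activity and is itself a p53 target, lies at chr4:11156431-11174379 on the plus strand. Its level was 66.5, 81.0 and 74.8 CPM in WT, 102, 83.7 and 64.0 in Tet2KO, 69.3, 67.4 and 75.0 in p300KO, and 49.7, 76.7 and 88.3 in p300KO_Tet2KO. All groups overlapped, and the Tet2KO and p300KO_Tet2KO libraries spread more widely than the others. In p300-deleted against p300-intact cells the log2 fold change was -0.14 ± 0.14 (-0.44 to 0.15).

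**Figure D2:**
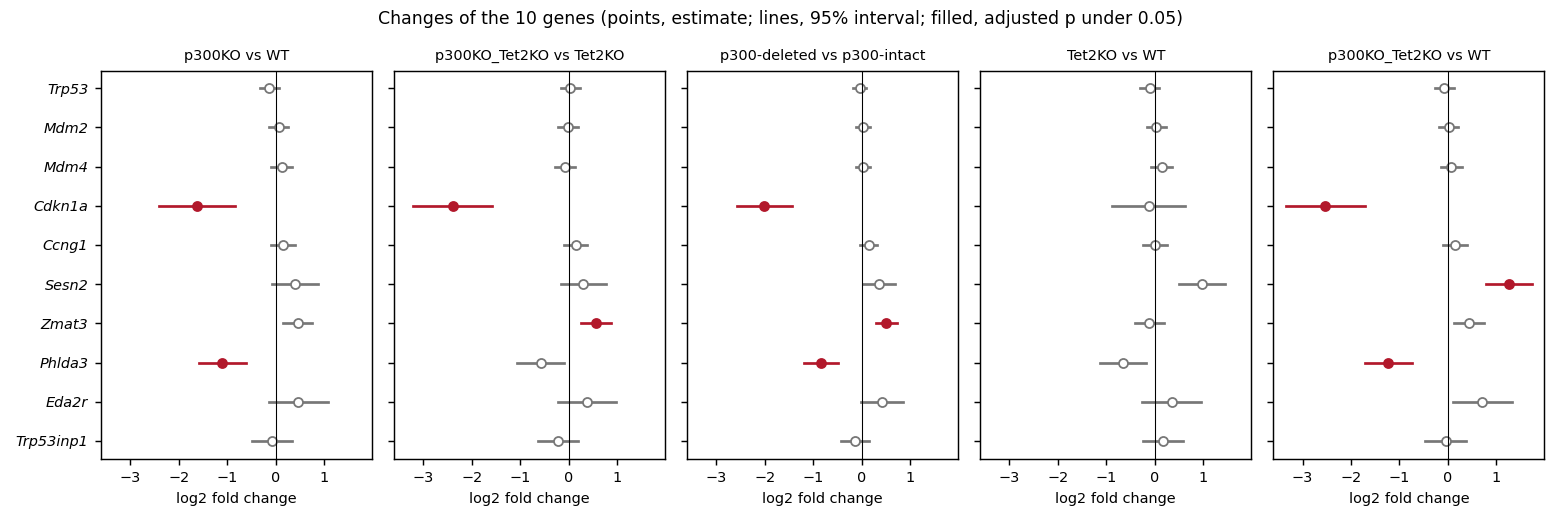
Log2 fold changes (x axis, linear) of the 10 genes in 5 comparisons; points are edgeR estimates, lines 95% intervals, and filled red points have an adjusted p under 0.05. Cdkn1a is filled in the 4 comparisons that involve p300 deletion, Phlda3 in 3 of them, Zmat3 and Sesn2 in fewer, and none of the 10 is filled for Tet2KO against WT.

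Set against all tested genes, the members were called as follows. In p300KO against WT 0 of 10 were higher and 2 lower, where 3.91% of all genes were called (1.06% higher and 2.85% lower). In p300KO_Tet2KO against Tet2KO 1 was higher and 1 lower, where 3.9% were called (1.01% higher and 2.89% lower). Tet2KO against WT called 0 of 10 by edgeR, 1 by DESeq2 and 0 by limma-voom, with 2 at an unadjusted p under 0.05 by edgeR. Over all 17842 tested genes edgeR called 0.633% (0.482% higher and 0.151% lower), DESeq2 called 488 and limma-voom 170. By edgeR 2309 of these genes were at an unadjusted p under 0.05.

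In p300KO_Tet2KO against WT 1 was higher and 2 were lower (8.43% of all genes called, 3.51% higher and 4.92% lower). Over p300-deleted against p300-intact libraries 1 was higher and 2 were lower (9.06% of all genes called, 3.05% higher and 6.01% lower). The 3 were also the members whose 6 against 6 libraries did not overlap, which held for 1.46% of all genes on the higher side and 2.82% on the lower side. Groups of 3 separate far more often. In p300KO against WT Zmat3 and Eda2r lay wholly above and Cdkn1a and Phlda3 wholly below, as did 10.6% and 13.2% of all genes. In p300KO_Tet2KO against Tet2KO Zmat3 lay above and Cdkn1a and Phlda3 below (9.61% and 10.1% of all genes). In Tet2KO against WT Mdm4, Sesn2 and Eda2r lay above and Phlda3 below (11% and 10.4%), and in p300KO_Tet2KO against WT Sesn2, Zmat3 and Eda2r above and Cdkn1a and Phlda3 below (13.7% and 13.8%). The interaction called 0 of 10 members and 0 of 17842 genes (0%) by edgeR, with 1268 genes at an unadjusted p under 0.05 and 51 called by DESeq2. The median log2 fold change of the 10 members was 0.09 in p300KO against WT and 0.01 in p300KO_Tet2KO against Tet2KO, beside medians over all genes of 0.01 and 0.02.

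Across the 12 libraries, log2 CPM of Cdkn1a and Zmat3 gave a Pearson correlation of -0.88, and Cdkn1a and Phlda3 one of 0.66. These are descriptions over libraries that share their groups. Trp53 and Cdkn1a gave -0.02, and Trp53 and Mdm4 -0.79. Within WT, Cdkn1a was highest and Zmat3 lowest in replicate 3, the library in which Phlda3 was also highest.

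**Figure D3:**
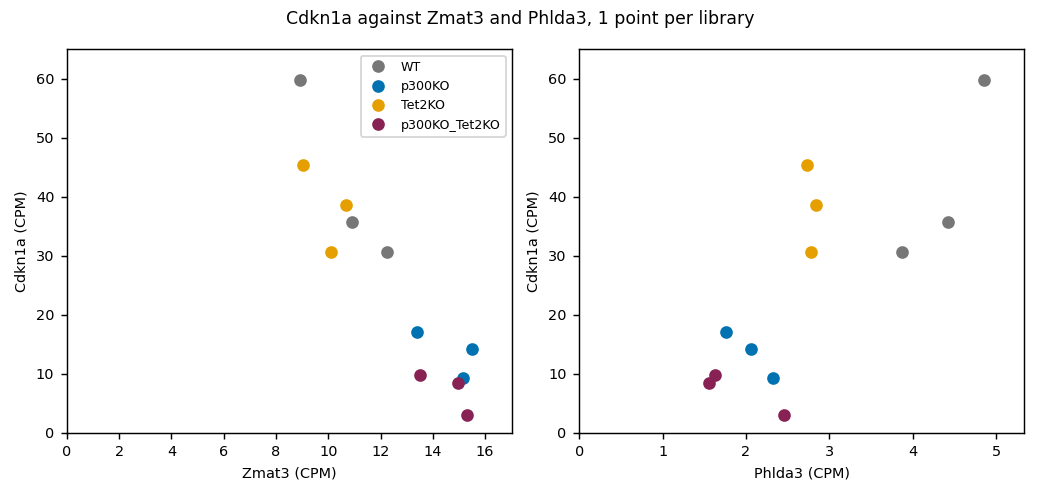
Cdkn1a (y axis, CPM) against Zmat3 (left) and Phlda3 (right), both in CPM on linear axes from 0, with 1 point per library coloured by group. The p300-deleted libraries lie together at 17.1 CPM or less of Cdkn1a, 13.4 or more of Zmat3 and 2.45 or less of Phlda3, apart from the p300-intact ones.

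For each member that was called in some comparison, the 2 tested genes most like it in log2 CPM were found by the Pearson correlation over 12 libraries among 17841 genes. For Cdkn1a they were Cox6a2, a subunit of cytochrome c oxidase known from muscle, and the receptor tyrosine kinase Epha2, each with r = 0.97. Epha2 was 4.35 to 8.70 CPM in p300-intact and 0.365 to 2.43 CPM in p300-deleted libraries. Phlda3 was most like Xrcc6, which encodes the DNA end-binding protein Ku70, and Atp1b3, a subunit of the sodium pump, both with r = 0.93. Zmat3 was most like Mtap7d3 (r = 0.94) and Mlf1 (r = 0.93), and Sesn2 most like the kinase gene Map3k6 (r = 0.96) and the Wnt receptor gene Fzd8 (r = 0.94). Since each was picked as the closest of many genes, no p is given.

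A further list held 58 other p53 target genes, of which 55 were tested. The others did not pass the filter on low counts. In p300KO against WT 1 was called higher and 2 lower (1.06% and 2.85% of all genes), and in p300KO_Tet2KO against Tet2KO 1 higher and 1 lower (1.01% and 2.89%). Tet2KO against WT called 0 of 55 by edgeR, 3 by DESeq2 and 0 by limma-voom, with 7 at an unadjusted p under 0.05 by edgeR. The same counts over all 17842 tested genes were 113, 488, 170 and 2309. In p300KO_Tet2KO against WT 1 was higher and 5 lower (3.51% and 4.92% of all genes), and in the 6 against 6 comparison 2 were higher and 3 lower, with 50 of 55 not called. The 5 of 55 are about the share among all genes (9.06%). The median log2 fold change of the 55 in that comparison was 0.08, beside 0.02 over all genes.

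By role, and beside 3.05% of all genes called higher and 6.01% lower, the 8 tested arrest genes had 0 calls in the 6 against 6 comparison, with log2 fold changes from -1.30 to 0.43. Of 12 apoptosis genes 1 rose, and the 5 feedback genes had 0 calls (-0.08 to 0.18). Of 5 repair genes 1 fell, and of 14 metabolism genes 1 fell. Among the 11 other targets 1 rose and 1 fell. In groups of this size 0 or 1 call is near the share among all genes.

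**Figure D4:**
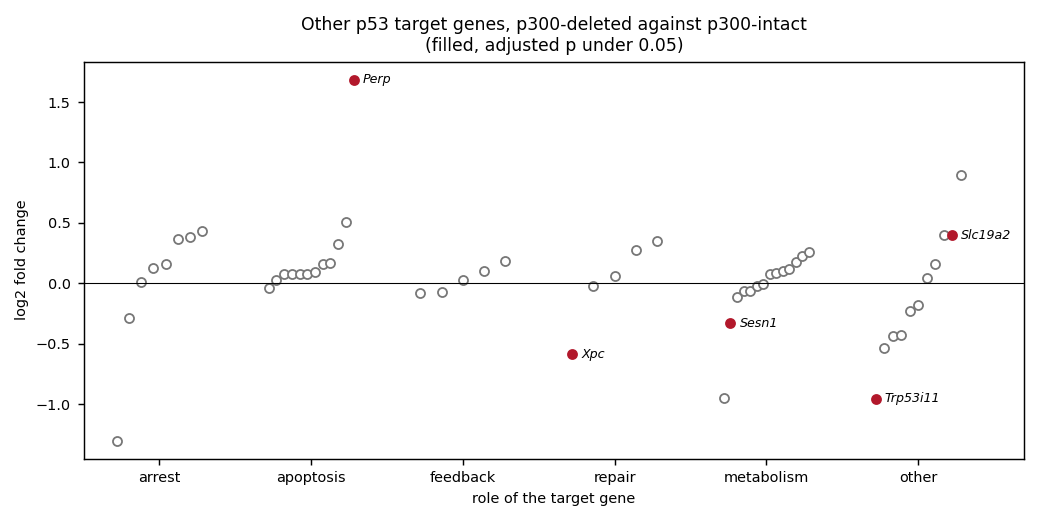
Log2 fold changes (y axis, linear) of the 55 other p53 target genes between p300-deleted and p300-intact libraries, grouped by role on the x axis and sorted within each role; filled red points have an adjusted p under 0.05 by edgeR. The 5 filled genes are Perp, Xpc, Sesn1, Trp53i11 and Slc19a2, and most open points lie near 0.

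Perp, a membrane protein of desmosomes that p53 induces in apoptosis, moved opposite to Cdkn1a. It was 1.66, 1.38 and 1.67 CPM in WT, 1.52, 1.47 and 2.13 in Tet2KO, 5.61, 4.38 and 4.68 in p300KO, and 6.47, 5.30 and 5.11 in p300KO_Tet2KO. All p300-deleted libraries were above all p300-intact ones. The log2 fold change was 1.64 ± 0.22 in p300KO against WT (adjusted p = 0.0017), 1.73 ± 0.21 in p300KO_Tet2KO against Tet2KO (adjusted p = 0.0007) and 1.68 ± 0.15, or 3.21-fold, in the 6 against 6 comparison (adjusted p = 2.7e-05).

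Xpc, which recognises damaged DNA in nucleotide excision repair, was 162, 156 and 176 CPM in WT, 139, 138 and 116 in Tet2KO, 99.2, 97.2 and 99.7 in p300KO, and 89.0, 112 and 89.0 in p300KO_Tet2KO. The p300-deleted libraries were below the p300-intact ones, by a narrow gap between 112 and 116 CPM. Its log2 fold change was -0.74 ± 0.10 in p300KO against WT (adjusted p = 0.0024) and -0.44 ± 0.10 in p300KO_Tet2KO against Tet2KO (adjusted p = 0.0349), where the call was lost without Tet2KO replicate 1 (0.118) or 2 (0.119), or p300KO_Tet2KO replicate 1 (0.134) or 3 (0.137). Over 6 against 6 it was -0.59 ± 0.07 (adjusted p = 0.0003).

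Trp53i11, the mouse counterpart of the p53-induced gene PIG11, was 57.3, 60.9 and 58.6 CPM in WT, 56.0, 48.0 and 30.6 in Tet2KO, 26.0, 24.4 and 23.5 in p300KO, and 24.2, 35.9 and 25.4 in p300KO_Tet2KO. WT and p300KO were far apart, while p300KO_Tet2KO overlapped Tet2KO because of Tet2KO replicate 3 and p300KO_Tet2KO replicate 2. It fell by 1.26 ± 0.19 on the log2 scale in p300KO against WT (adjusted p = 0.0038) and was not called in p300KO_Tet2KO against Tet2KO (-0.65 ± 0.19, adjusted p = 0.0852). The interaction of 0.60 ± 0.27 was not called (adjusted p = 0.691).

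Smaller changes were called for Sesn1, the sestrin 1 gene, and Slc19a2, a thiamine transporter. Sesn1 was -0.33 ± 0.08 on the log2 scale in p300-deleted against p300-intact cells (adjusted p = 0.0199) and Slc19a2 0.40 ± 0.10 (adjusted p = 0.0295). The 6 against 6 libraries overlapped for both. The Sesn1 call was lost without p300KO replicate 3, Tet2KO replicate 2, or p300KO_Tet2KO replicate 1 or 3 (adjusted p up to 0.0567). That of Slc19a2 held only without WT replicate 2, p300KO replicate 3, Tet2KO replicate 3 or p300KO_Tet2KO replicate 2 and otherwise rose to an adjusted p of up to 0.0792. In p300KO_Tet2KO against WT, Sfn (14-3-3 sigma) was at -0.86 ± 0.20 (adjusted p = 0.0177) and Ddit4l, an inhibitor of mTORC1, at -2.11 ± 0.59 (adjusted p = 0.0449), the latter at 1.28 CPM or less in every library. Without 1 of the 6 libraries, the Sfn call held only without WT replicate 3 or p300KO_Tet2KO replicate 2 (otherwise adjusted p up to 0.0854), and the Ddit4l call only without p300KO_Tet2KO replicate 2 (otherwise up to 0.158).

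**Figure D5:**
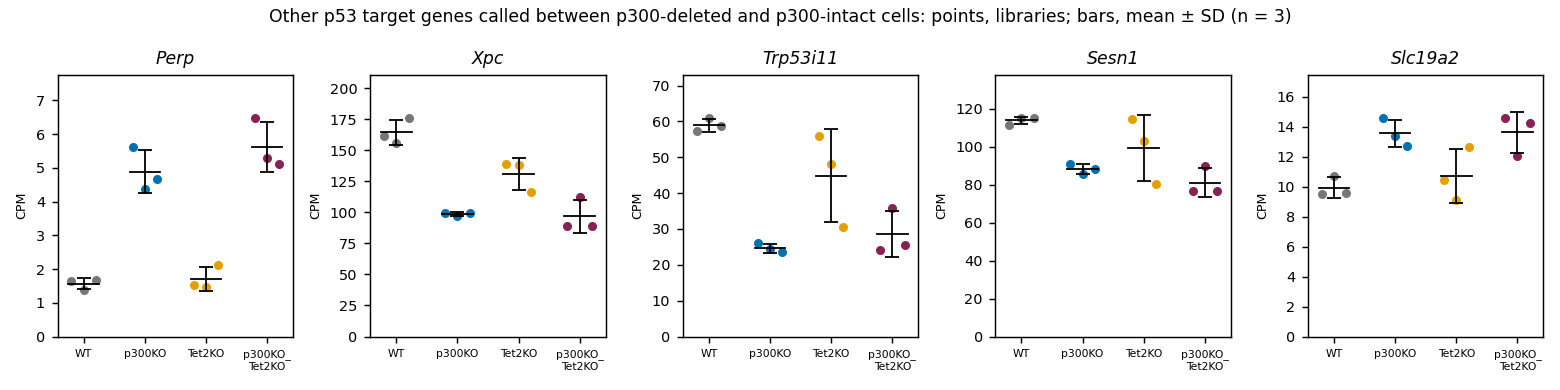
Levels in CPM (linear axes from 0) of the 5 other target genes called between p300-deleted and p300-intact libraries, by group; points are libraries and bars the mean ± SD (n = 3). Perp lies at 4.38 CPM or more in p300-deleted and 2.13 or less in p300-intact libraries, Xpc is separated in the opposite direction, and Trp53i11, Sesn1 and Slc19a2 overlap between Tet2KO and p300KO_Tet2KO.

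Of 35 genes for p53 regulators and partners, 32 were tested. Ep300 itself fell by 0.63 ± 0.11 on the log2 scale in p300KO against WT (adjusted p = 0.0065) and by 0.95 ± 0.11 in p300KO_Tet2KO against Tet2KO (adjusted p = 0.0005), and its paralog Crebbp was between 319 and 406 CPM in all libraries. Dyrk2, a kinase known to phosphorylate p53, was 39.2, 34.5 and 34.6 CPM in WT and 24.1, 24.6 and 23.4 in p300KO, where it fell by 0.59 ± 0.11 (adjusted p = 0.0099), but was not called in p300KO_Tet2KO against Tet2KO (-0.12 ± 0.11, adjusted p = 0.621). The call in p300KO was lost without WT replicate 1 (adjusted p = 0.0612) or p300KO replicate 3 (0.0502). Smyd2, a methyltransferase that acts on p53, was higher in p300KO_Tet2KO (71.6, 65.1 and 61.8 CPM) than in Tet2KO (43.5, 51.1 and 51.5 CPM), by 0.44 ± 0.10 (adjusted p = 0.0247), and was not called in p300KO against WT (0.04 ± 0.10, adjusted p = 0.884). The interaction was not called for Dyrk2 (adjusted p = 0.586) or Smyd2 (0.632). The Smyd2 call in p300KO_Tet2KO against Tet2KO was lost without Tet2KO replicate 1 (adjusted p = 0.0935) or 2 (0.0591), or p300KO_Tet2KO replicate 1 (0.0995) or 2 (0.0542). Over p300-deleted against p300-intact libraries Dyrk2 was at -0.36 (adjusted p = 0.0094, called in 20 of 20 alternative fits). Smyd2 was at 0.24 there (adjusted p = 0.0456, called in 5 of 20). For both genes these libraries overlapped. Hdac1, a deacetylase that acts on p53, was -0.77 ± 0.16 in p300KO_Tet2KO against WT (adjusted p = 0.0086), -0.76 ± 0.16 in Tet2KO against WT (adjusted p = 0.0522) and -0.01 ± 0.16 in p300KO_Tet2KO against Tet2KO (adjusted p = 0.984). The other tested regulators, among them Crebbp, Atm, Chek2 and Usp7, had no call in any comparison.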

How the data were processed

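RNA of sorted LSK cells was depleted of ribosomal RNA and sequenced by the authors as paired reads of 100 bp. Per the labels, STAR 2.6.0c, RSEM 1.3.0 and the mm10 genome were used. The deposited table holds RSEM expected counts (estimated counts per gene, not normalized) for 46517 genes and has 0 spike-in rows, so the spike-in factor of the study was not used. Annotation release and counting strand are not given in the sources used here. Coordinates come from Gencode vM21, which matched 17743 of the tested gene identifiers.

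Counts were rounded to whole numbers. In R 4.3.3, edgeR 4.0.16 kept 17842 genes by filterByExpr, normalized by TMM and fitted all 12 libraries with quasi-likelihood models with 1 mean per group (common biological coefficient of variation 0.203). Tests were two-sided with Benjamini-Hochberg adjustment within each of 6 comparisons. Standard errors were derived from the F statistic and the fold change, with 95% intervals. For 3 against 3 libraries the smallest p of an exact permutation test is 0.10. The code of the fit was checked on counts drawn from the negative binomial model that edgeR assumes, which does not test that model on these data.

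The members and the gene lists were chosen with earlier results of these data known. The genes named are the 10 members, called genes of the other target and regulator lists (up to 8 each), Ep300, Crebbp and Tet2, up to 3 called genes of each stress list, and the 2 genes most alike to each called member. Alternatives were DESeq2 size factors, DESeq2 1.42.0, limma-voom (limma 3.58.1), a filter of 1 CPM in 3 libraries, no filter, the compared groups alone, a replicate block, a Y-linked RNA covariate, and leaving out each library. The covariate in a fit without Tet2KO replicate 1 was added after seeing the data. Plots were made in matplotlib 3.10.9 under Python 3.11.15.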

Additional observations from a re-analysis of the deposited data

How the results depend on the processing

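Every call of a named gene kept its sign under the alternatives run. Of 2294 alternative values 79 changed sign, all in comparisons in which the gene was not called, such as Cdkn1a in Tet2KO against WT. The calls of Cdkn1a, Phlda3 and Zmat3 in p300-deleted against p300-intact cells, of Cdkn1a in p300KO_Tet2KO against Tet2KO, and of Cdkn1a, Phlda3 and Sesn2 in p300KO_Tet2KO against WT held under every alternative run. In p300KO against WT the fit with the Y-linked RNA covariate and without Tet2KO replicate 1 called 1 member lower. That was Phlda3, since the Cdkn1a call was lost (adjusted p = 0.0563). Without 1 library 0 to 2 members were called lower. The higher call of Zmat3 in p300KO_Tet2KO against Tet2KO went to 0 with DESeq2 size factors, without a filter, in the compared groups alone, with the Y-linked RNA covariate with or without Tet2KO replicate 1, and without any 1 library. Members called higher in Tet2KO against WT numbered 1 (Sesn2) with the DESeq2 Wald test and without a filter, and in p300KO_Tet2KO against WT 2 with the DESeq2 Wald test. The cause of these changes was not tested.

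Over all genes, the DESeq2 Wald test called 1219 in p300KO against WT, 1252 in p300KO_Tet2KO against Tet2KO, 488 in Tet2KO against WT and 51 for the interaction, against 698, 695, 113 and 0 by edgeR. For Tet2KO against WT limma-voom called 170, no filter 227, the compared groups alone 58, and the Y-linked RNA covariate without Tet2KO replicate 1 called 41. The compared groups alone called 345 in p300KO_Tet2KO against Tet2KO, and no filter called 2 for the interaction. Without 1 library the counts were 244 to 651 for p300KO against WT, 387 to 767 for p300KO_Tet2KO against Tet2KO, 36 to 205 for Tet2KO against WT, 872 to 1208 for p300KO_Tet2KO against WT and 0 to 14 for the interaction.

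The correlations of the deviations of same-numbered libraries from the group means ran from -0.15 to 0.14 over 18 pairs, with 5 above 0.1, of which 4 were between libraries numbered 3, against -0.21 to 0.19 over 36 pairs of different number, with 4 above 0.1. Since most same-numbered pairs were not above 0.1, the numbers were not taken to pair the samples. With a replicate block, the call of Zmat3 in p300KO_Tet2KO against Tet2KO (0.55, adjusted p = 0.0786) was lost, which left 0 members called higher, and the interaction called 2 genes. Phlda3 and Eda2r were below 5 CPM in every library, so their changes rest on fewer reads than those of most members.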

Other observations

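A list of 12 genes of the integrated stress response, in which ATF4 acts, was read from the same fit. In p300KO_Tet2KO against Tet2KO 2 of 12 were called higher (1.01% of all genes), Psat1, an enzyme of serine synthesis, and Vldlr, a lipoprotein receptor. Psat1 was 84.2, 111 and 115 CPM in Tet2KO and 154, 130 and 137 in p300KO_Tet2KO, a log2 fold change of 0.44 ± 0.11 (adjusted p = 0.0453), and Vldlr was 59.9, 46.3 and 55.3 CPM against 126, 76.3 and 131 (1.04 ± 0.25, adjusted p = 0.0378). Without 1 of the 6 libraries the Psat1 call held only without Tet2KO replicate 3 (otherwise adjusted p up to 0.156) and the Vldlr call only without p300KO_Tet2KO replicate 2 (otherwise up to 0.140). Over p300-deleted against p300-intact libraries the same 2 of 12 were called higher by edgeR (3.05% of all genes). Psat1 was at 0.37 (adjusted p = 0.0101, called in 20 of 20 alternative fits) and Vldlr at 0.62 (adjusted p = 0.0470, called in 8 of 20). In p300KO against WT, p300KO_Tet2KO against WT and Tet2KO against WT 0 of 12 were called by edgeR, DESeq2 or limma-voom. By edgeR, 3, 4 and 1 of 12 were at an unadjusted p under 0.05, beside 2893, 3707 and 2309 of all 17842 tested genes. The list's median log2 fold change in p300KO_Tet2KO against WT was 0.19, beside 0.02 over all genes.

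A list of 15 immediate-early genes, which respond within minutes to handling and growth signals, had 0 calls by edgeR, DESeq2 or limma-voom in any comparison. At most 1 of its genes was at an unadjusted p under 0.05 by edgeR in each, beside 1268 to 3848 of all 17842 tested genes. Its summed level was 1632 to 3220 CPM in WT, 2142 to 3189 in Tet2KO, 1841 to 3355 in p300KO and 1557 to 3773 in p300KO_Tet2KO, so that the groups overlapped. Plk2, an arrest gene among the other p53 targets and chosen here after its values were seen, spread widely within groups. It was 12.6, 15.5 and 49.6 CPM in WT, 22.2, 18.1 and 9.17 in Tet2KO, 4.72, 19.2 and 11.0 in p300KO, and 1.83, 11.2 and 4.01 in p300KO_Tet2KO, with a log2 fold change of -1.30 ± 0.47 over p300-deleted against p300-intact cells (adjusted p = 0.118). WT replicate 3, which held the highest Plk2, also held the highest Cdkn1a of all 12 libraries.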
